A study of Homo sapiens with 15 samples.

Results

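MIR378A, a microRNA gene, and PPARGC1B, the protein-coding gene whose intron holds it, were followed through 15 small RNA libraries. They were taken by name from the deposited count table and are 2 of its 50037 genes. MIR378A was chosen by measured values of these same libraries, in which its level stood higher with LPL:VLDL than with VLDL, so that comparison is described here and not tested. The labels name the cells HEK-293, which is a human embryonic kidney line, and give a wild-type genotype, while the title of the series speaks of macrophages. Of the 15 libraries, 5 came from cells given 20 µM GKT136901, which blocks NOX1 and NOX4, enzymes that make reactive oxygen species, together with the products that lipoprotein lipase (LPL) releases from very low-density lipoprotein (VLDL). Another 5 came from cells given those products alone (LPL:VLDL), and 5 from cells given VLDL, whose titles read pcDNA:VLDL. All cells were incubated for 18 h, and all had VLDL or its products. Each group had 1 library in each of 5 experiments, numbered 2 to 6 in the labels, and nothing says whether an experiment was a separate passage of the cells, so the p-values measure a spread that may be partly technical. The libraries held between 5.08 M and 9.76 M counts each, and the lowest was the GKT136901 + LPL:VLDL library of experiment 3.

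MicroRNAs are cut from a hairpin precursor, and either arm of the hairpin can guide the silencing complex to mRNAs that pair with bases 2 to 8 of the microRNA, the seed. The host gene encodes PGC-1β, a coactivator that works with the estrogen-related receptors and other nuclear receptors to switch on genes of mitochondria and fatty acid oxidation. In mice, deletion of the microRNA pair raised oxidative metabolism and gave resistance to diet-induced obesity, and carnitine acetyltransferase and MED13 are known targets there.

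The sequences below are those of RefSeq (GRCh38.p14, plus strand). The hairpin is shown because a count in this table belongs to the whole precursor and not to an arm. Capitals mark its mature arms, and in the arms themselves capitals mark the seed.
MIR378A hairpin, chr5:149732825-149732890: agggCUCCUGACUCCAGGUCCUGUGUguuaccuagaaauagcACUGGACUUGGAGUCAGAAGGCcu
miR-378a-5p, chr5:149732829-149732850: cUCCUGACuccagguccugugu
miR-378a-3p, chr5:149732867-149732888: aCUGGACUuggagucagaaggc

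The seed of the 3p arm is shared with other genes of the family, and the sequences that follow, of members that had counts, show how closely they resemble miR-378a-3p. That of MIR378D1, which also had counts, is not shown. Positions are counted from 1 at the 5′ end, the base of miR-378a-3p comes first, and capitals mark the differing bases. The other genes shown with the same seed are MIR378F (U14C), MIR378B (U14G), MIR378C (G21A and C22G) and MIR422A (G10A and A12G).
miR-378f: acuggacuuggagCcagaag
miR-378b: acuggacuuggagGcagaa
miR-378c: acuggacuuggagucagaagAGugg
miR-422a: acuggacuuAgGgucagaaggc
MIR378C shares its first 20 bases with miR-378a-3p. A stretch of 20 bases from that 5′ end therefore occurs in 2 of the 1562 hairpins of the sequence table, and one of 21 bases in MIR378A alone. Reads that map to several places were not counted by the authors, so shorter reads of the 3p arm may be missing from both genes. The 5p seed, UCCUGAC, belonged to miR-378a-5p alone among 2545 mature sequences.

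On hg38, PPARGC1B runs from 149730310 to 149857959 on the plus strand of chromosome 5, with 15 exons once all its annotated transcripts are merged. MIR378A, of 66 bases, lies on the same strand in the intron after exon 1. That intron has 41519 bases, and the hairpin begins 2404 bases past the end of exon 1 and ends 39049 bases before the next annotated exon. No gene has an exon over the hairpin, so its reads were not lost to a shared position. PDE6A, on the other strand, overlaps 7 of the 11735 exon bases of PPARGC1B and had 1 count in all 15 libraries. Around the host there was little signal. The 3 genes upstream, LOC124901104, LOC124901221 and LOC105378224, had a count of 0 in every library, as did MFFP2 downstream. Farther downstream, SLC26A2, a sulfate transporter, had 50 counts and TIGD6 had 90.

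**Figure D1:**
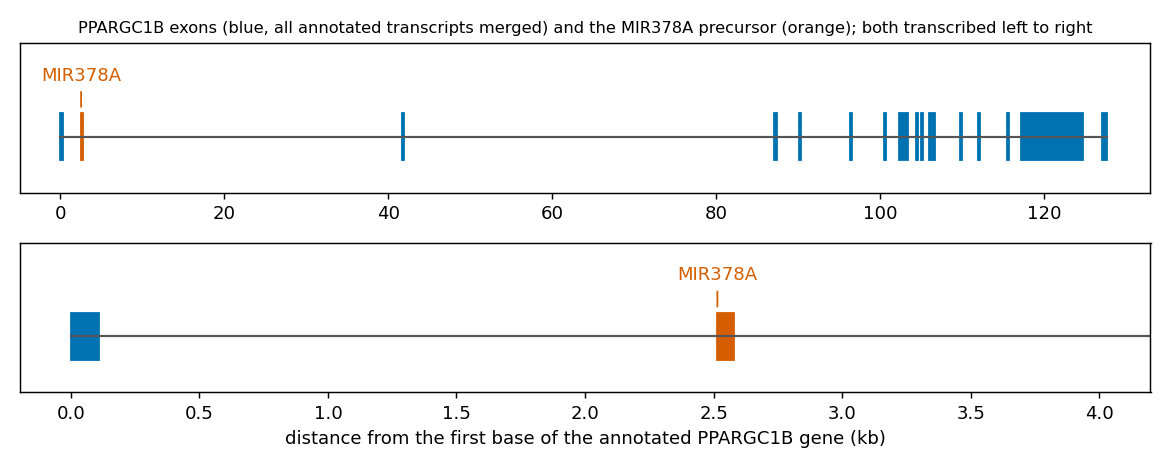
Map of PPARGC1B (blue, merged exons) and the MIR378A hairpin (orange), with distance from the first annotated base of PPARGC1B in kb on the x axis; the lower panel enlarges the 5′ end. The hairpin lies in the intron after exon 1, and features narrower than a drawn line in the upper panel are widened to be visible.

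The markers did not bear out the label of the cells. Of 18 genes known from HEK-293 cells, 10 had a count, 49 counts in all, and LIN28B, SOX2, NEFM, L1CAM, SALL1, INA, STMN2 and MAGEA2B were at 0. Among those with counts, NEFH had 13 and CDH2 had 6. Of 18 myeloid genes 17 had a count, with 6788 counts in all, led by CSF1R with 1771, ITGB2 with 1382 and SPP1 with 1316, and AIF1 was at 0. Their sum, in counts scaled to a library total of 1000000 (CPM), was 42.8 ± 21.6 CPM for GKT136901 + LPL:VLDL, 52.6 ± 41.9 CPM for LPL:VLDL and 59.0 ± 28.3 CPM for VLDL (SD, n = 5 each). Of the 10 myeloid genes that could be tested, 4 lay above 0 in LPL:VLDL against VLDL, 1 in GKT136901 + LPL:VLDL against LPL:VLDL and 0 against VLDL, and none passed in edgeR (0, 1 and 2 of the 10 had an unadjusted p under 0.05) or in DESeq2 or limma voom. Of all 4099 genes tested, 50.7%, 47.9% and 49.6% lay above 0 in the same order of comparisons. In edgeR 77, 87 and 91 of these genes had an unadjusted p under 0.05. The part of myeloid cells in the levels of MIR378A and PPARGC1B was not tested.

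MIR378A had a mean of 32.8 CPM over the 15 libraries. It ranked 93 by level among the 762 microRNA genes with a count. It had 269, 175, 363, 349 and 265 counts with GKT136901 + LPL:VLDL in experiments 2 to 6. With LPL:VLDL it had 251, 308, 399, 413 and 338 counts in the same order. With VLDL it had 143, 303, 274, 261 and 244 counts. At such counts, counting error alone gives a coefficient of variation of 5.93%, 5.41% and 6.39% in the groups as listed. The CPM values varied by 15.5%, 16.7% and 21.7%, so most of the spread was not counting error.

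As CPM, MIR378A stood at 32.2, 34.5, 40.2, 40.0 and 27.5 with GKT136901 + LPL:VLDL in experiments 2 to 6. It stood at 29.1, 32.6, 42.6, 43.1 and 37.3 CPM with LPL:VLDL, and at 16.5, 31.1, 28.3, 27.9 and 29.0 CPM with VLDL. The lowest library of all was that of VLDL in experiment 2, whose counting interval (95%, exact Poisson, counting error only) was 13.9 to 19.4 CPM. The other 4 VLDL libraries lay within 27.9 to 31.1 CPM, and 4 of the 5 LPL:VLDL libraries lay above all 5 VLDL libraries. The group means were 34.9 ± 5.40 CPM with GKT136901 + LPL:VLDL, 36.9 ± 6.16 CPM for LPL:VLDL and 26.5 ± 5.76 CPM for VLDL (SD, n = 5 each).

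**Figure D2:**
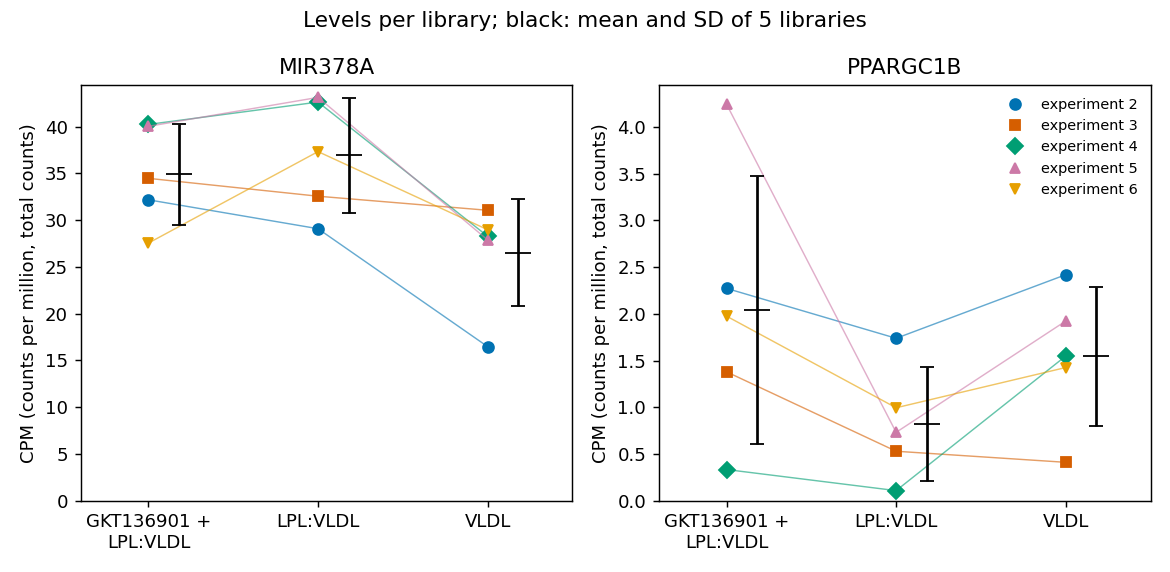
CPM of MIR378A (left) and PPARGC1B (right) in each of the 15 libraries, by group, with a colour and symbol for each experiment and lines joining libraries of 1 experiment; black bars give the mean and SD of 5 libraries. MIR378A means were 34.9, 36.9 and 26.5 CPM from left to right, and PPARGC1B means were 2.04, 0.820 and 1.54 CPM.

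The comparison of LPL:VLDL with VLDL sets cells given the lipid products of LPL against cells given VLDL, titled pcDNA:VLDL. It cannot tell an effect of the products from one of the lipase itself. MIR378A was 1.39 times as high in LPL:VLDL by mean CPM, and higher in 5 of 5 experiments. The ratios within experiments 2 to 6 were 1.77, 1.05, 1.51, 1.55 and 1.29, with the smallest in experiment 3. Among all 4099 genes tested, 1.27% were higher in 5 of 5 experiments by CPM, as were 3.09% of the 291 microRNA genes tested. Since the gene was chosen in view of this comparison, nothing is read from its place among them. The edgeR log2 difference was 0.62 (SE 0.27), and 0.63 (SE 0.16) with the experiment as a block. Of the genes tested 0.0% were called in edgeR and 0.0244% with the block. These values use TMM scaling, which sets libraries level by a trimmed mean of their gene ratios. Under TMM the median log2 difference of all tested genes was 0.01, and with total counts as the scale it was -0.11, where that of MIR378A was 0.48 (SE 0.24).

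Other microRNAs leaned the same way under TMM. Over the 291 microRNA genes tested, the median log2 difference between LPL:VLDL and VLDL was 0.12, and 71.5% were above 0. Over the 132 of them with a mean of at least 10 CPM the median was also 0.12, and 81.8% were above 0. MIR378A ranked 27 from the highest of the 291, whose top value was 1.80, and 2 from the highest of the 132, whose top value was 0.63. The gene was chosen in view of this comparison, so nothing is read from its ranks. Higher in 5 of 5 experiments under TMM were 11% of tested microRNA genes and 3.44% of all tested genes. Scaled to 1000000 microRNA counts in place of all counts, MIR378A averaged 95.9 ± 10.9 with LPL:VLDL and 69.9 ± 11.2 with VLDL (SD, n = 5 each). On that scale the lowest LPL:VLDL library, at 83.9, stood above the highest VLDL library, at 82.9, so the groups did not overlap. The same held for 0.687% of the tested microRNA genes in this direction. This scale was added after the data were seen. As the gene was chosen in view of this comparison, nothing is read from the separation. On the CPM and TMM scales the groups overlapped.

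The comparison of GKT136901 + LPL:VLDL with LPL:VLDL asks what inhibiting the oxidases does to cells given the lipid products. It shares the LPL:VLDL libraries with the comparison just described, and the one of GKT136901 + LPL:VLDL with VLDL shares the VLDL libraries, so neither is independent of how MIR378A was chosen. MIR378A CPM was higher with GKT136901 + LPL:VLDL in 2 of 5 experiments, at ratios of 1.11 and 1.06 in experiments 2 and 3. It was lower in the other 3, at ratios of 0.944, 0.928 and 0.738 in experiments 4 to 6. The values of the 2 groups overlapped widely. The edgeR log2 difference was -0.22 (SE 0.27, Benjamini-Hochberg adjusted p = 1.00 over all tested genes), so no change was detected. None of the 4099 genes passed in edgeR in this comparison (0.0% called, with 87 at an unadjusted p under 0.05), and none in DESeq2 or limma voom. The summed myeloid markers were also lower here by their means, and their part was not tested.

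Against VLDL, MIR378A was higher with GKT136901 + LPL:VLDL in 4 of 5 experiments by CPM, where 24.1% of tested microRNA genes were higher in 4 or 5. The ratios were 1.95, 1.11, 1.42, 1.44 and 0.951 in experiments 2 to 6. With TMM scaling it was higher in 5 of 5, where 11% of tested microRNA genes were too. The mean was 1.32 times that with VLDL. The edgeR log2 difference was 0.40 (SE 0.27, adjusted p = 0.999), and 0.46 with the experiment as a block (SE 0.16, adjusted p = 0.997), so it passed in neither fit. In order of mean CPM, LPL:VLDL and GKT136901 + LPL:VLDL differed by less than their SDs, and VLDL was the lowest.

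**Figure D3:**
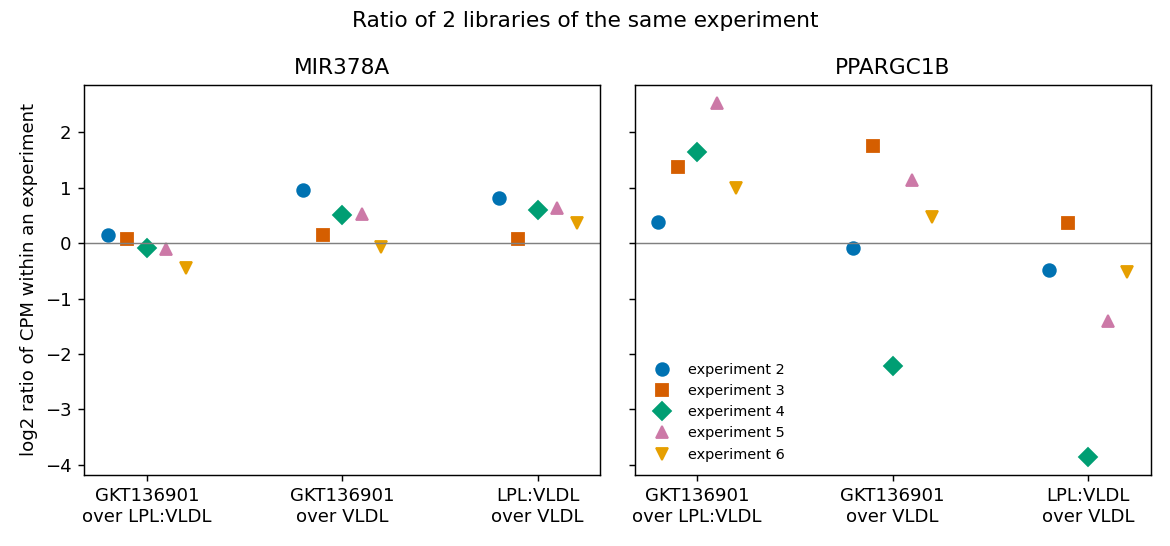
Log2 ratio of CPM between 2 libraries of the same experiment for MIR378A (left) and PPARGC1B (right), for the 3 comparisons; each symbol is 1 experiment and the grey line marks no difference. MIR378A was above the line in 5 of 5 experiments for LPL:VLDL over VLDL, and PPARGC1B in 5 of 5 for GKT136901 + LPL:VLDL over LPL:VLDL.

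MIR378A also differed between experiments. Under TMM scaling the 3 libraries of experiment 2 held 12.6 to 27.8 CPM and the other 12 held 28.6 to 46.2 CPM, without overlap. The 4 experiment terms of the blocked edgeR fit, tested together, gave an adjusted p of 0.0107 for MIR378A. The same test called 11.1% of all tested genes and 38.5% of the tested microRNA genes. The result rested on the scale and on experiment 2: the adjusted p was 0.331 with total counts as the scale, 0.415 with microRNA counts as the scale and 0.987 without experiment 2. By CPM of total counts, experiment 2 averaged 25.9 and the other experiments 31.3 to 37.0, and the libraries overlapped. Other features moved with experiment 2, and their part in the result was not tested. The effective library size under TMM was 1.16 to 1.33 times the total count there, against 0.763 to 1.02 times elsewhere. Protein-coding fragments took 1.36% to 1.62% of counts there, against 0.769% to 1.08% elsewhere. The summed level of 18 myeloid marker genes was 81.1 to 127 CPM there, against 28.1 to 60.6 CPM elsewhere. Within experiment 2 MIR378A stood at 32.2 CPM in the GKT136901 + LPL:VLDL library, 29.1 CPM in the LPL:VLDL library and 16.5 CPM in the VLDL library, so VLDL was the lowest there as in the group means, while the other two groups stood in the opposite order.

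The rest of the miR-378 family was scarce. The family is taken by name and with MIR422A, and MIR378G (A6G) and MIR378J (C7U) differ within the seed. Of its 12 genes 6 had any count, and MIR378A held 4355 of the 4462 counts, or 94.7% to 99.3% of them in a library. The other 107 counts were spread over MIR378D1 with 36, MIR378C with 31, MIR378B with 18, MIR422A with 16 and MIR378F with 6. No library held more than 9 counts of any of these 5 genes, and none of them passed the filter on low counts, so none was tested. MIR378C, whose first 20 bases match those of miR-378a-3p, had 17 counts with GKT136901 + LPL:VLDL, 9 with LPL:VLDL and 5 with VLDL. Of its 17 counts, 9 came from 1 library. MIR422A had 1, 10 and 5 counts in the same order, and 7 of its 10 LPL:VLDL counts came from 1 library. The remaining 6 genes were at 0. Of these, MIR378I overlaps an exon of TNFRSF13C and MIR378D2 one of MIR378D2HG, and the extent of the overlap was not measured. A read over both genes was not counted, so the 0 of MIR378I and MIR378D2 does not show absence.

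PPARGC1B, the host, was seen only as short fragments of its mRNA, with 192 counts over 15 libraries. It ranked 1600 among the 13932 protein-coding genes with a count. The counts were 19, 7, 3, 37 and 19 with GKT136901 + LPL:VLDL in experiments 2 to 6, then 15, 5, 1, 7 and 9 with LPL:VLDL, and 21, 4, 15, 18 and 12 with VLDL. As CPM these were 2.27, 1.38, 0.333, 4.24 and 1.98 with GKT136901 + LPL:VLDL, and 1.74, 0.529, 0.107, 0.731 and 0.994 with LPL:VLDL. With VLDL they were 2.42, 0.410, 1.55, 1.92 and 1.43 CPM. The lowest was the single LPL:VLDL count of experiment 4, whose counting interval reached 0.595 CPM. The groups overlapped in all 3 comparisons, and counting error alone gives a coefficient of variation of 24.3%, 36.8% and 26.7% in the groups as listed. Group means were 2.04 CPM ± 1.44, 0.820 CPM ± 0.607 and 1.54 CPM ± 0.743 (SD, n = 5 each). In bulk samples, fewer cells that express a gene and less RNA per cell cannot be told apart.

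With LPL:VLDL the host was lower than with VLDL by mean CPM, at 0.531 times the level, in 4 of 5 experiments. The exception was experiment 3, at a ratio of 1.29, while experiment 4 had the lowest ratio at 0.0690. Lower in 4 or 5 of 5 experiments by CPM were 26.6% of all tested genes. The difference of -0.725 CPM did not pass the exact permutation test (two-sided, p = 0.135, 0.202 adjusted over the 3 comparisons of the host). With libraries paired by experiment, a sign-flip gave an exact permutation p of 0.125. The edgeR log2 difference was -0.82 (SE 0.65, adjusted p = 0.999), and -0.96 with the experiment as a block (SE 0.66, adjusted p = 0.988). The smallest p that 5 against 5 libraries allow is 0.00794. Without the VLDL library of experiment 3, which was the lowest of its group, the difference was -1.01 CPM (exact permutation p = 0.0476, not adjusted).

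With GKT136901 + LPL:VLDL the host was higher than with LPL:VLDL in 5 of 5 experiments on each scale tried, as were 4.51% of all tested genes by CPM. The ratios were 1.31, 2.61, 3.11, 5.81 and 1.99 in experiments 2 to 6. The ratio of the group means was 2.49 and their difference 1.22 CPM (exact permutation test, two-sided, p = 0.111, 0.202 adjusted). A sign-flip over the 5 experiments gave an exact permutation p of 0.0625, the smallest that 5 pairs allow. The edgeR log2 difference was 1.29 (SE 0.65, adjusted p = 1.00), so the difference did not pass. Single libraries weighed on it. Without the GKT136901 + LPL:VLDL library of experiment 4, with 3 counts, the difference was 1.65 CPM (exact permutation p = 0.0317, not adjusted). Without that of experiment 5, with 37 counts, it was 0.670 CPM.

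Between GKT136901 + LPL:VLDL and VLDL the host differed by 0.496 CPM (exact permutation p = 0.563), with 3 of 5 experiments higher and 2 lower. A sign-flip over the 5 experiments gave an exact permutation p of 0.5. Without the library with 37 counts the difference was -0.0552 CPM (exact permutation p = 0.889), so its direction rested on 1 library. The edgeR log2 difference was 0.47 (SE 0.63, adjusted p = 0.999).

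Set side by side, the intronic microRNA and its host did not show the same order of groups. MIR378A means ran 34.9, 36.9 and 26.5 CPM for GKT136901 + LPL:VLDL, LPL:VLDL and VLDL, and PPARGC1B means ran 2.04, 0.820 and 1.54 CPM. In LPL:VLDL against VLDL, MIR378A was higher in 5 of 5 experiments and PPARGC1B lower in 4 of 5. The Pearson r of their log2 TMM-scaled CPM was -0.39 over 15 libraries and -0.38 after the mean of each experiment was taken off. These libraries share depth and scaling, and the host rests on 1 to 37 counts in each, so this r is a description of sparse counts.

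Per kilobase of annotated gene, MIR378A stood at 497 CPM and the exons of PPARGC1B at 0.125 CPM. In counts, there were 22.7 of MIR378A for each of PPARGC1B. Small RNA libraries select short RNA, so this is not a ratio of transcripts. Among 29 intronic microRNAs whose host had a count, the ratio ranked 21 from the highest, and the median was 589. The nearest pairs were MIR33A in SREBF2 at 24.6 and MIR26A2 in CTDSP2 at 18.3, and SREBF2 encodes a transcription factor of cholesterol synthesis. At the upper end, MIR148B in COPZ1 had 23883 counts per host count and MIR30E in NFYC had 12606. PPARGC1B ranked 11 of the 26 distinct hosts by level per kilobase, and MIR378A ranked 20 of the 30 microRNAs by CPM. The ranks by ratio and by microRNA level are limited by reads that were not counted. Of the 8 pairs with a lower ratio, 4 have an exon of another gene that overlaps the microRNA. These are MIR103A1, MIR103A2, MIR128-1 and MIR149, the last one with an exon of its host GPC1. Such an overlap need not remove every read, as MIR103A1 had 5 counts and MIR103A2 had 6. MIR26A1, MIR26A2, MIR218-1 and both MIR103A genes also have near-identical copies, whose shared reads were left out.

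**Figure D4:**
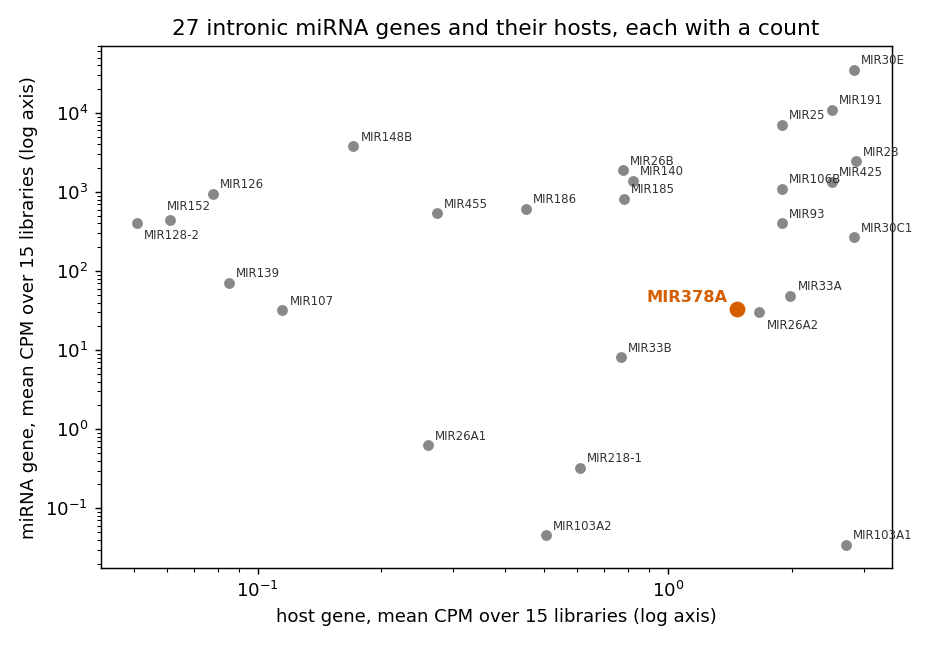
Mean CPM over 15 libraries of 27 intronic microRNA genes (y axis, log) against that of their host genes (x axis, log), each with at least 1 count; MIR378A and PPARGC1B are in orange. MIR378A, at 32.8 CPM, lies among the less abundant microRNAs for hosts of its level, beside MIR26A2 and MIR33A.

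The microRNAs most like MIR378A were sought by Pearson r of log2 TMM-scaled CPM among the 131 others with a mean of at least 10 CPM. Over 15 libraries they were MIR629 (r = 0.91), MIR25 (0.87), MIR148B (0.86), MIR532 (0.86) and MIR330 (0.86), and the median of all 131 was 0.65. After the mean of each experiment was taken off they were MIR10527 (0.93), MIR532 (0.91), MIR629 (0.90), MIR106B (0.88) and MIR339 (0.87), with a median of 0.46. The points share library, depth and scaling, and the medians show that high values of r were common among these microRNAs. MIR629 averaged 177 ± 20.7 CPM for GKT136901 + LPL:VLDL, 176 ± 24.6 CPM for LPL:VLDL and 155 ± 19.6 CPM for VLDL (SD, n = 5 each). Its log2 difference between LPL:VLDL and VLDL was 0.35 (SE 0.23, adjusted p = 0.999). For MIR10527, whose means were 21.8, 23.3 and 19.1 CPM, it was 0.40 (SE 0.24, adjusted p = 0.999). MIR629, MIR330, MIR10527 and MIR339 were each higher with LPL:VLDL in 5 of 5 experiments under TMM scaling, as were 11% of tested microRNA genes. MIR25, MIR532 and MIR106B were higher in 4 and MIR148B in 3. All were picked from the same libraries for likeness to MIR378A, itself chosen in view of this comparison. Their shared direction is therefore no independent result.

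The known surroundings of the pair showed no called gene. Of 35 genes of the PGC-1 network (coactivators with PPARGC1B among them, their nuclear receptors and partners), 13 could be tested. In edgeR 0 of these 13 passed in any comparison, with or without the block, and 0, 1 and 0 had an unadjusted p under 0.05 in LPL:VLDL against VLDL, GKT136901 + LPL:VLDL against LPL:VLDL and GKT136901 + LPL:VLDL against VLDL. DESeq2 and limma voom called no gene of this or the following lists either. Above 0 were 6 of 13 in LPL:VLDL against VLDL, 8 in GKT136901 + LPL:VLDL against LPL:VLDL and 9 against VLDL, at median log2 differences of -0.06, 0.12 and 0.22. All tested genes had medians of 0.01, -0.02 and -0.00417, and 50.7%, 47.9% and 49.6% of them lay above 0. These shares also stand beside the lists that follow. The most abundant were MEF2C, a transcription factor of muscle and myeloid cells, at a mean of 3.94 CPM, PPARD, a fatty acid-sensing nuclear receptor, at 2.74 CPM and HCFC1 at 2.36 CPM.

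Of 36 genes of fatty acid oxidation and the respiratory chain, 12 could be tested, and 5 lay above 0 in each comparison. In edgeR 0 passed, with 0, 0 and 2 at an unadjusted p under 0.05 in the same order of comparisons. UQCRC1, a core subunit of respiratory complex III, had 15.7 ± 4.16 CPM for GKT136901 + LPL:VLDL, 16.7 ± 8.52 CPM for LPL:VLDL and 14.4 ± 2.64 CPM for VLDL (SD, n = 5 each). LPL, the lipase gene itself, had 2.91 ± 1.36, 3.42 ± 1.97 and 5.58 ± 2.71 CPM in that order (SD, n = 5 each). Against VLDL its edgeR log2 difference was -0.59 (SE 0.43) with LPL:VLDL and -0.91 (SE 0.44) with GKT136901 + LPL:VLDL. Both had an edgeR adjusted p of 0.999.

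Of 22 mRNAs known as targets of either arm of miR-378a, a list recalled without a literature source in hand, 11 could be tested and 0 passed in edgeR, with 0 at an unadjusted p under 0.05 in each comparison. Above 0 were 5 of 11 in LPL:VLDL against VLDL, 8 in GKT136901 + LPL:VLDL against LPL:VLDL and 5 against VLDL, at median log2 differences of -0.12, 0.16 and -0.08. The most abundant were NRP1, a co-receptor of semaphorins and VEGF, at a mean of 4.72 CPM, RUNX1, a transcription factor of blood cells, at 4.00 CPM and MSC at 2.82 CPM. NRP1 was lower with LPL:VLDL than with VLDL in 5 of 5 experiments under TMM scaling, as were 3.46% of tested genes. Its edgeR log2 difference was -0.39 (SE 0.53, adjusted p = 0.999). These are fragments of mRNA, which do not measure repression by a microRNA.

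Of 54 genes listed as intronic microRNAs and their hosts, 30 could be tested and 0 passed in edgeR, with 0, 1 and 0 at an unadjusted p under 0.05. Above 0 were 20 of 30 in LPL:VLDL against VLDL, 19 in GKT136901 + LPL:VLDL against LPL:VLDL and 24 against VLDL, at median log2 differences of 0.08, 0.06 and 0.11. Among all 291 microRNA genes tested, 71.5%, 47.1% and 70.4% lay above 0 in the same order. The most abundant members of the list were MIR30E at a mean of 35222 CPM, MIR191 at 11019 CPM and MIR25 at 7080 CPM. MIR378A is also known as a microRNA of striated muscle. Of 11 muscle microRNA genes 3 had a count, MIR133A2 at 1.53 CPM, MIR206 at 0.658 CPM and MIR1-1 at 0.314 CPM. Of the 8 at 0, 5 overlap an exon of another gene (MIR1-2, MIR133A1, MIR499A, MIR486-1 and MIR486-2). Reads over both genes were not counted. MIR133A2 also overlaps such an exon and had 206 counts, so an overlap need not remove every read. The sum of the 11 muscle microRNA genes was 2.32 ± 1.53 CPM for GKT136901 + LPL:VLDL, 2.78 ± 0.993 CPM for LPL:VLDL and 2.41 ± 2.65 CPM for VLDL (SD, n = 5 each).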

How the data were processed

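The authors deposited raw read counts per gene for 15 small RNA libraries (TRIzol RNA, DNase, NEBNext small RNA kit, NovaSeq X, per the labels' protocols). The tools named in the submitters' processing notes include STAR 2.7.11b and fastp 0.24.0, with build hg38. Per the file headers, featureCounts 2.0.6 counted exons by gene, and neither multiply mapped reads, nor reads over several genes, nor strand were handled by an option. Groups and experiments came from the labels, and 0 columns were unmapped.

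MIR378A, PPARGC1B and all gene lists were chosen with earlier results of these data known. Named genes were the members, family genes with a count, the 3 most abundant of each list and any called, the 5 most alike microRNAs over libraries and within experiments, the 3 neighbours on each side and the intronic pairs. Some genes that this rule names are not reported here.

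Levels are CPM of total counts unless TMM-scaled. Genes were filtered by filterByExpr (minimum count 10, total 15; 4099 kept) and tested, two-sided, with edgeR 4.0.16 (R 4.3.3) by the quasi-likelihood F test with TMM, in 1 model of 3 groups (12 residual degrees of freedom), with Benjamini-Hochberg adjustment over all genes and 0.05 as threshold. PPARGC1B CPM was compared by exact permutation. Alternatives used other scalings and filters, DESeq2 1.42.0, limma voom (limma 3.58.1), left-out libraries and a block for experiment (residual degrees of freedom 8). The test was tried on simulated counts first.

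The labels give same-numbered libraries a shared experiment, so the numbers pair them: deviations from group means correlated at 0.066 to 0.38 in the 15 same-numbered pairs and -0.15 to 0.15 in the other 60. The tests of the experiment terms and the scalings to microRNA or protein-coding counts were added after seeing the data. Intervals cover counting error only, since reads carried no molecular identifiers.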

Additional observations from a re-analysis of the deposited data

Results flagged for a closer look

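In 3 of 12 combinations of gene, scale and group examined, 1 library stood apart from the other 4 of its group, its gap to the nearest taking up more of the range than the critical value of 0.71. Chance does this for about 1 group in 20. All 3 concern MIR378A and the library of experiment 2, and they are not independent, since 2 scales share the same counts. With LPL:VLDL the lowest library held 21.8 TMM-scaled CPM (0.855 of the range). With VLDL the lowest held 12.6 TMM-scaled CPM (0.876 of the range) and 16.5 CPM of total counts (0.782 of the range).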

How the results depend on the processing

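The log2 difference of MIR378A between LPL:VLDL and VLDL was 0.43 to 0.77 in 24 alternatives, described only, since the gene was chosen by it. That between GKT136901 + LPL:VLDL and LPL:VLDL was -0.38 to -0.07, and that between GKT136901 + LPL:VLDL and VLDL 0.21 to 0.55, and none passed adjustment. For PPARGC1B the log2 difference was -1.31 to -0.39 for LPL:VLDL against VLDL and 0.83 to 1.56 for GKT136901 + LPL:VLDL against LPL:VLDL. With the experiment as a block, GKT136901 + LPL:VLDL against VLDL gave 0.24, and reversed to -0.041 without replicate 2 and -0.046 without replicate 4 (experiments 3 and 5).

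The number of genes called between LPL:VLDL and VLDL was 0 in edgeR (77 at an unadjusted p under 0.05), DESeq2 and limma voom, 1 with the block (172 at an unadjusted p under 0.05) and 0 to 2 when a replicate was left out, the 1 and 2 only in fits with the block. The other comparisons called 0 in every alternative, with 87 and 91 genes at an unadjusted p under 0.05 in edgeR. Leaving out 1 library moved the CPM difference of PPARGC1B to -1.01 to -0.507 for LPL:VLDL against VLDL, 0.670 to 1.65 for GKT136901 + LPL:VLDL against LPL:VLDL and -0.0552 to 0.923 for GKT136901 + LPL:VLDL against VLDL. The experiment term of MIR378A (adjusted p 0.0107) was 0.331 with total library size, 0.415 scaled to microRNA counts and 0.987 without experiment 2; the cause was not tested. The block changed no other call. PPARGC1B had 1 to 37 counts per library, and its CPM varied by 70.5% with GKT136901 + LPL:VLDL, 74.1% with LPL:VLDL and 48.1% with VLDL, against 24.3%, 36.8% and 26.7% from counting error alone.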
